A study of Mus musculus with 36 samples.

Results

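The genes described here are Myc and 34 genes of ribosome biogenesis, looked up in the deposited counts by their Ensembl identifiers. They were chosen as a named set, with earlier results of these data known. All 35 were found among the 48795 identifiers of the table, and 34 of them were among the 15901 genes with enough counts to be tested. Wdr74 was the exception, with 7 counts over all 36 libraries. RNA had been sequenced from mouse lung pericyte-like cells, which were grown from lung digests, depleted of cells carrying CD31, CD45 or CD326, and selected for PDGFRβ, a receptor that fibroblasts also carry. The cells were held for 6 or 24 h in reduced-serum medium mixed with an equal volume of 1 of 3 fluids. In media only that fluid was phosphate-buffered saline, and in the other groups it was bronchoalveolar lavage fluid (BALF) from uninjured or from injured lungs. The reduced serum and its dilution were thus shared by all groups, and the labels give neither the strain of the mice nor the kind of injury. There were 6 libraries (n = 6), 3 from female and 3 from male cells, for each of the 6 combinations of fluid and time. Whether the 6 libraries of a combination trace back to different mice or dishes is not in the labels, and every p-value is then a measure of library-to-library spread alone, which may be technical.

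Ribosomes are built in the nucleolus, where RNA polymerase I transcribes the ribosomal RNA precursor. Small nucleolar RNA particles guide its methylation (box C/D) and its pseudouridylation (box H/ACA), and a large set of assembly factors cleaves, folds and exports the precursors of the small and the large subunit. Myc is a transcription factor that binds DNA as a dimer with Max at the E-box CACGTG, and genes of each of these steps are among its known targets in growing cells. Its mRNA is short-lived and responds quickly to serum, growth factors and inflammatory signals.

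The E-box gave a reason to look at the members' promoters, which RefSeq (GRCm38.p6) lists for 29 of the 35 as windows from 250 bases before to 50 bases after a transcription start. Myc, Fbl, Npm1, Bop1, Rrp12 and Rrs1 had no window. The letters CACGTG, which read the same on both strands, occurred in the windows of 7 of the 29 members (24.1%), namely Mybbp1a, Tsr1, Nop2, Nle1, Wdr43, Pes1 and Utp20. They occurred in 11.4% of the 11132 tested genes with a window and in 7.15% of all 32851 windows. The stretches around the match are printed for the 6 of these members that passed the test in the most comparisons, 5′ to 3′ on the gene's strand, with the letters CACGTG and, in Nop2, CCGGAAG in capitals. Other motifs stay in lower case.
Mybbp1a, chr11:72441347-72441376, plus strand: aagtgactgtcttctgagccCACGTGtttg
Tsr1, chr11:74898092-74898121, plus strand: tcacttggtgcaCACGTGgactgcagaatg
Nle1, chr11:82908355-82908384, minus strand: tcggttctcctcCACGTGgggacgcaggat
Wdr43, chr17:71616220-71616249, plus strand: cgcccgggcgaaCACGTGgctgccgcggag
Pes1, chr11:3963965-3963994, plus strand: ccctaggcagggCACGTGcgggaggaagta
Nop2, chr6:125131633-125131882, plus strand: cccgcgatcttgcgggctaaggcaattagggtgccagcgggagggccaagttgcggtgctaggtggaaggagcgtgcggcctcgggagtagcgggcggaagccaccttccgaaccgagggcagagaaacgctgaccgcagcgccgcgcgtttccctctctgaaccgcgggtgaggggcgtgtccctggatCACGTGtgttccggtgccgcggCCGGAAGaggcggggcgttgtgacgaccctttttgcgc
In Nop2 the E-box began 60 bases before the start, and the other stretch in capitals is CCGGAAG, a motif of ETS factors. In the other 5 the E-box began 2 to 40 bases after the start. A window with CCGGAAG, searched on both strands, belonged to 34.5% of the 29 members and to 18.9% of the tested genes that have a window. GGGCGG, the core of SP and KLF sites, was found for 72.4% and 67.3% of these genes. The median GC content was 59.3% in the members' windows and 60.3% in those of tested genes. These matches describe letters in a window and were not tested as binding sites.

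Total counts per library ran from 17134840 to 35991683. Of 10 pericyte markers, Higd1b was at 0 in all libraries, Kcnj8 and Abcc9 stayed under 1 CPM (counts per 1000000 counts of the library, scaled by TMM), and the sum of the list was 776 to 1351 CPM in media at 6 h and 539.9 to 805 in injured BALF at 24 h. Pdgfrb was read at 256 to 862 CPM and the 8 fibroblast markers at a summed 19160 to 50490 CPM, so these lists do not separate pericytes from fibroblasts. Summed endothelial markers lay at 8.67 to 184 CPM, macrophage markers at 13.4 to 82.8 and mesothelial markers at 18.4 to 255, with ranges that overlapped between all 6 groups. Neutrophil markers lay at 0.762 to 3.4 CPM in media at 6 h and 5.35 to 8.98 in injured BALF at 24 h. Epithelial markers stayed under 1 CPM in every library, at 0 to 0.108 CPM in media, 0.0719 to 0.293 in uninjured and 0.428 to 0.958 in injured BALF at 6 h, where injured BALF did not overlap the other groups. At 24 h they lay at 0 to 0.113, 0.06 to 0.943 and 0.163 to 0.492 CPM in the same order, and injured BALF did not overlap media. The part of these lists in the results below was not tested. In 4 libraries the number in the sample description begins differently from the rest: replicate 3 of male media at both times, replicate 3 of male uninjured BALF at 24 h and replicate 2 of female media at 24 h. The macrophage sum was lowest of its group in 3 of them, at 13.4 to 13.9 CPM, and counts of called genes are therefore given below also without the 4. In bulk RNA, fewer cells of a type and less of a transcript per cell cannot be told apart.

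The members rose together in BALF at 6 h and fell together from 6 to 24 h in BALF. At 6 h, 30 of 34 tested members rose in uninjured BALF against media, while 10.6% of all tested genes rose (edgeR quasi-likelihood test, adjusted p under 0.05). In injured BALF at 6 h all 34 tested members rose, against 13.9% of all tested genes. Their median log2 fold change was 0.55 in uninjured and 0.76 in injured BALF, beside -0.01 for all tested genes in both comparisons. Both use the same media libraries. At 24 h, 29 members still lay above media in injured BALF by the test, where 11.5% of all tested genes did, at a median of 0.44. For uninjured BALF at 24 h no member passed, with 0.516% of all tested genes higher. Heatr1, Polr1b and Nhp2 differed most there, at 0.36 ± 0.12, 0.34 ± 0.11 and 0.32 ± 0.16 (edgeR adjusted p = 0.18, 0.15 and 0.43). In all, 9 members had an unadjusted p under 0.05, DESeq2 called 0, and the median was 0.19. Here and below, counts of an unadjusted p under 0.05 are given without the share of all tested genes at that threshold. Leaving out replicate 1 of female media gave 1 call and replicate 1 of female uninjured BALF gave 3.

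From 6 to 24 h all 34 tested members had log2 differences below 0 in each treatment. In uninjured BALF all 34 tested members fell, against 15.5% of all tested genes, at a median log2 fold change of -0.83. In injured BALF 33 fell, against 14.2% of all tested genes, at a median of -0.74. With media only, 24 fell, against 3.33% of all tested genes, at a median of -0.44. The median of all tested genes was between 0.01 and 0.03 in the 3 time comparisons. The falls in BALF held in 29 to 34 members in uninjured and 28 to 34 in injured BALF under every alternative run. In media the number of calls varied more, while the members' median log2 difference stayed between -0.48 and -0.41 under every alternative run. By the same test 7 members fell without the 4 libraries described above, 0 when the libraries numbered 1 and 2 of each group were summed, and 0, 0 and 11 without replicate numbers 1, 2 and 3. At 6 h, leaving out replicate 1 of female media gave 14 falls, replicate 2 of female media 15 and replicate 2 of male media 10. At 24 h, leaving out replicate 3 of female media gave 15, replicate 1 of male media 11 and replicate 3 of male media 14.

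The counts in BALF against media varied with the libraries used in 2 of the comparisons. Without replicate number 2 in all groups, which leaves fewer libraries per group, 19 members rose in uninjured BALF at 6 h and 9 in injured BALF at 24 h. Under every alternative run, the members' median log2 difference stayed between 0.49 and 0.58 in the first comparison. In the second it stayed between 0.39 and 0.55. Without the 4 libraries the counts were 26 and 22, and the count for injured BALF at 6 h stayed at 34.

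To set the 6 groups side by side, each gene's log2 level was taken relative to its mean over the 36 libraries and averaged over the 33 tested members other than Myc. At 6 h this average was -0.11 ± 0.082 in media (mean ± SD, n = 6), 0.43 ± 0.088 in uninjured BALF and 0.63 ± 0.11 in injured BALF. At 24 h it was -0.52 ± 0.19, -0.35 ± 0.25 and -0.08 ± 0.20 in the same order. The 6 media libraries at 6 h, at -0.21 to -0.01, lay below all 12 BALF libraries at 6 h, while the 3 treatments overlapped at 24 h. The lowest value of uninjured BALF at 24 h, -0.76, came from female replicate 1, and the lowest of injured BALF at 24 h, -0.42, from female replicate 3. Every tested member had its highest mean level in injured BALF at 6 h and its second-highest in uninjured BALF at 6 h. Media at 24 h had the lowest mean in 31 members and uninjured BALF at 24 h in 3. In 19 members the full order was injured 6 h, uninjured 6 h, injured 24 h, media 6 h, uninjured 24 h and media 24 h, and in 11 others media 6 h stood above injured 24 h. Neighbours in that order did not all differ by the test: 1 member differed between injured and uninjured BALF at 6 h and none between uninjured BALF and media at 24 h.

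**Figure D1:**
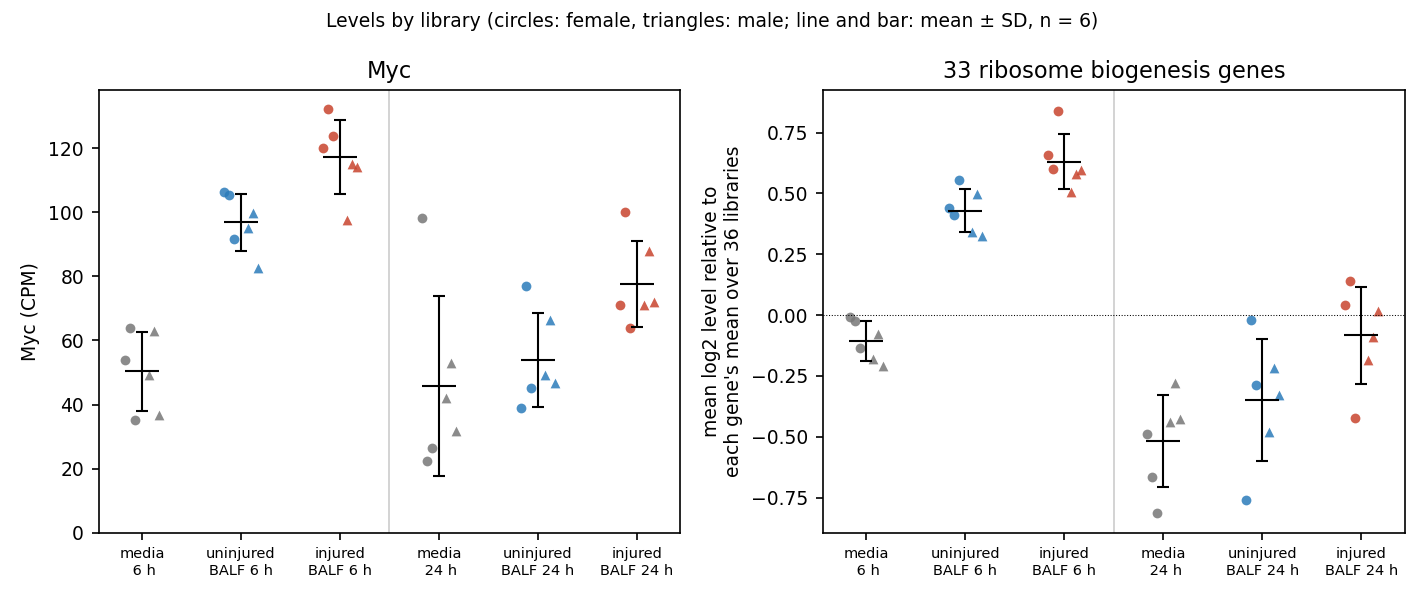
Level of Myc in CPM (left panel) and mean log2 level of 33 ribosome biogenesis genes relative to each gene's own mean over 36 libraries (right panel), by treatment and time. Circles are female and triangles male libraries, and the line and bar give the mean ± SD (n = 6): the 33-gene average is 0.63 in injured BALF at 6 h and -0.52 in media at 24 h, and the highest media library at 24 h for Myc is at 98.3 CPM.

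Myc itself (ENSMUSG00000022346.14, chr15:61985391-61990374, plus strand, coordinates of GRCm38 here and below) lay at 35.3 to 63.8 (median 51.6) CPM in media at 6 h, 82.6 to 106 (median 97.4) in uninjured BALF and 97.7 to 132 (median 118) in injured BALF. Every BALF library at 6 h was thus above every media library, and the lowest injured library, at 97.7 CPM, lay within the range of the uninjured ones. Its level rose 1.92-fold in uninjured BALF or 0.94 ± 0.25 log2 units (value ± SE; edgeR adjusted p = 0.0074), and 2.32-fold in injured BALF, 1.22 ± 0.25 (edgeR adjusted p = 0.00051). The rise in uninjured BALF was 0.81 and not called without replicate number 3 in all groups (edgeR adjusted p = 0.084). At 24 h Myc was read at 22.5 to 98.3 (median 36.9) CPM in media, 39.0 to 76.9 (median 48.0) in uninjured BALF and 64.0 to 99.98 (median 71.6) in injured BALF. The top media value, which lay within the injured range, came from female replicate 1. It is the library with the highest mitochondrial share of all 36 (3.87%), and the part of that share was not tested. The other 5 media libraries held 22.5 to 52.9 CPM, below all 6 injured ones. Injured BALF at 24 h was above media by 0.77 ± 0.25 (edgeR adjusted p = 0.023), and by 1.27 without that female media library. This call was lost on leaving out replicate 2 or 3 of female media, replicate 3 of male media or replicate 2 of female injured BALF. It was also lost without the 4 libraries of a differing description number, at 0.53, and without replicate number 2 or 3, at 0.54 and 0.64 (edgeR adjusted p = 0.134, 0.236 and 0.141).

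With time, the main fit called Myc in uninjured BALF alone. In injured BALF a fit with the replicate number as a block also called Myc. In uninjured BALF it fell by 0.84 ± 0.25 on the log2 scale from 6 to 24 h (edgeR adjusted p = 0.01), a call lost without replicate number 1, at -0.68, or 3, at -0.81 (edgeR adjusted p = 0.076 and 0.0501). In injured BALF the log2 difference was -0.59 ± 0.25 and missed the threshold (edgeR adjusted p = 0.075). There all 6 same-numbered pairs of libraries correlated over 0.1, though the labels state no pairing. With the number as a block the difference was -0.61 (edgeR adjusted p = 0.039). That block is shared by all groups of a sex, also where same-numbered libraries correlated negatively, down to -0.60. In the fit with no block, the difference was -0.58 without the 4 libraries of a differing description number. Without replicate 2 of female injured BALF at 24 h it was -0.69, and both passed the threshold. In media the difference was -0.15 ± 0.25 (edgeR adjusted p = 0.76). Without replicate 1 of female media at 24 h it became -0.65 and passed (edgeR adjusted p = 0.020), while without replicate 2 it was 0.01. Uninjured BALF at 24 h differed from media by 0.25 ± 0.25 (edgeR adjusted p = 0.79), or by 0.75 without that library, which passed (edgeR adjusted p = 0.039). The Myc values that use media at 24 h thus moved by over 1.5 times with that 1 library.

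RNA polymerase I was represented by Polr1a and Polr1b, its largest and second-largest subunits. Polr1b (ENSMUSG00000027395.15, chr2:129100995-129126594, plus strand) lay at 19.7 to 24.8 (median 23.0) CPM in media at 6 h, 38.4 to 53.5 (median 44.3) in uninjured BALF and 43.3 to 65.4 (median 51.5) in injured BALF. BALF and media libraries did not overlap, and the 2 BALF groups did. Polr1b rose 1.97-fold in uninjured BALF, by 0.98 ± 0.11 on the log2 scale (edgeR adjusted p = 4.2e-07), and 2.3-fold in injured BALF (edgeR adjusted p = 3.0e-09). At 24 h it lay at 12.4 to 19.6 (median 16.5) CPM in media, 15.6 to 26.5 (median 19.7) in uninjured BALF and 20.2 to 28.1 (median 26.4) in injured BALF. All 6 injured libraries were above all 6 media libraries, by 0.66 ± 0.11 log2 units (edgeR adjusted p = 4.6e-05), and the uninjured range reached into both. Its fall from 6 to 24 h was 1.12 log2 units in uninjured BALF, the largest among the members there, 1.03 in injured BALF, again the largest, and 0.49 in media. Polr1a moved less, from a mean of 92.3 ± 3.75 CPM (SD, n = 6) with media at 6 h to 134 ± 11.8 in injured BALF. It rose by 0.30 ± 0.10 in uninjured BALF (edgeR adjusted p = 0.041) and by 0.53 ± 0.10 in injured BALF (edgeR adjusted p = 0.00031). The call in uninjured BALF was lost without low-count filter, with upper quartile scaling, without the 4 libraries and with the libraries numbered 1 and 2 summed (edgeR adjusted p = 0.076, 0.085, 0.081 and 0.060). It was also lost on leaving out any of the 6 media libraries, replicate 3 of either sex in uninjured BALF, or any replicate number, and was 0.17 without number 3 (edgeR adjusted p = 0.381).

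The box C/D particle was covered by Fbl (fibrillarin, the methyltransferase of the particle), its scaffold proteins Nop56 and Nop58, and Rrp9, a protein of the U3 particle that is needed for cleavage of the precursor. All 4 rose in both BALF groups at 6 h and in injured BALF at 24 h, and all 4 fell with time in each of the 3 treatments. In media the 4 falls were lost with the libraries numbered 1 and 2 summed. Those of Fbl, Nop56 and Nop58 were also lost without any replicate number. Without the 4 libraries of a differing description number, Nop58 lost its rises in uninjured BALF at 6 h and injured BALF at 24 h (edgeR adjusted p = 0.062 and 0.057). Nop56 lay at 88.1 to 109.6 (median 102) CPM in media at 6 h, 146 to 189.7 (median 162) in uninjured and 160.5 to 245 (median 179) in injured BALF, and the media and BALF ranges did not overlap. It rose by 0.71 ± 0.13 and 0.89 ± 0.13 log2 units in the 2 fluids (edgeR adjusted p = 0.00021 and 5.3e-06). Rrp9 rose from a mean of 32.8 ± 2.27 CPM (SD, n = 6) with media to 60.6 ± 7.19 in injured BALF, by 0.89 ± 0.13 (edgeR adjusted p = 9.7e-06), and its fall in injured BALF was 0.99, to 30.5 ± 6.31 CPM. Fbl and Nop58 rose by 0.56 and 0.76 in injured BALF at 6 h. Nop56 and Nop58 carry small nucleolar RNA genes within their exons in the annotation, on the same strand, which the counts may not separate. The same holds for Ncl, Gnl3 and Ppan below.

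The box H/ACA particle was covered by 3 members, of which 2 rose in uninjured and all 3 in injured BALF at 6 h. Dkc1 (dyskerin, the pseudouridine synthase) lay at 36.4 to 43.1 (median 38.5) CPM in media at 6 h, 53.0 to 75.2 (median 65.3) in uninjured BALF and 76.2 to 103 (median 82.5) in injured BALF. These 3 ranges did not overlap at all. The rise over media was 0.73 ± 0.13 log2 units in uninjured BALF (edgeR adjusted p = 0.00024) and 1.13 ± 0.13 in injured BALF (edgeR adjusted p = 2.8e-07), and the direct difference between the fluids was 0.41 ± 0.13 (edgeR adjusted p = 0.092), not past the threshold. Gar1, a core protein of the particle, rose by 0.49 and 0.76 in the 2 fluids at 6 h, and its uninjured libraries, at 17.8 to 32.8 CPM, overlapped those of media, at 14.0 to 20.4. The call in uninjured BALF was lost without replicate 3 of female or male media or replicate 1 of female or male uninjured BALF, and without any replicate number. It was also lost with the libraries numbered 1 and 2 summed and without the 4 libraries (edgeR adjusted p = 0.079 and 0.089). At 24 h its log2 difference between injured BALF and media was 0.33 ± 0.15 (edgeR adjusted p = 0.12). Nhp2, another core protein, gave 0.38 ± 0.15 in uninjured BALF (edgeR adjusted p = 0.091) and rose by 0.57 ± 0.15 in injured BALF at 6 h (edgeR adjusted p = 0.0074). It also rose in injured BALF at 24 h, by 0.62 ± 0.16 (edgeR adjusted p = 0.0044), from 31.3 ± 7.13 to 47.4 ± 8.34 CPM.

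The 3 abundant nucleolar phosphoproteins differed from media at 6 h by 0.13 to 0.64 log2 units in uninjured BALF, where 1 rose, and by 0.42 to 0.83 in injured BALF, where all 3 rose. None fell with time in media by the test, and all 3 fell in both fluids. Ncl (nucleolin, a histone and RNA chaperone) lay at 654 to 864 (median 683) CPM in media at 6 h, 746 to 982 (median 853) in uninjured and 952 to 1198 (median 994) in injured BALF. Uninjured libraries overlapped media, and injured ones did not. The log2 difference from media was 0.27 ± 0.098 in uninjured BALF (edgeR adjusted p = 0.053), and Ncl rose by 0.52 ± 0.098 in injured BALF (edgeR adjusted p = 0.00024). Npm1 (nucleophosmin, which helps move ribosomal particles out of the nucleus) passed in 3 of 11 comparisons, the fewest of any tested member. It ranged over 597 to 918 CPM in media at 6 h and 812 to 1091 in injured BALF, with 1 media library within the injured range. It rose by 0.42 ± 0.11 (edgeR adjusted p = 0.0055), and processed copies of this gene elsewhere in the genome make its counts uncertain. Nolc1, a chaperone of small nucleolar particles, rose by 0.64 ± 0.16 and 0.83 ± 0.16 in the 2 fluids at 6 h (edgeR adjusted p = 0.0046 and 0.00025). At 24 h its media libraries spread over 44.3 to 112 CPM, with the top value from female replicate 1, and no treatment difference passed. Without replicate number 1 in all groups, Nolc1 passed in injured BALF against media at 24 h, at 0.55 (edgeR adjusted p = 0.018).

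Of the 7 small-subunit factors, 6 rose in uninjured BALF at 6 h, all 7 in injured BALF at 6 h and 6 in injured BALF at 24 h. The 24 h calls of Rrp12, Wdr43 and Utp15 were lost without the 4 libraries (edgeR adjusted p = 0.12, 0.104 and 0.077). They were also lost with the libraries numbered 1 and 2 summed (edgeR adjusted p = 0.052, 0.054 and 0.051). Nop14, Wdr43, Utp15, Utp20 and Heatr1 belong to the small-subunit processome, the particle that forms on the nascent precursor. Heatr1 lay at 51.4 to 62.9 (median 55.3) CPM in media at 6 h, 77.9 to 101 (median 90.6) in uninjured and 98.2 to 118 (median 106) in injured BALF, with no overlap between media and BALF. It rose by 0.69 ± 0.12 and 0.93 ± 0.12 log2 units (edgeR adjusted p = 0.0001 and 8.6e-07), and by 0.66 ± 0.12 in injured BALF at 24 h (edgeR adjusted p = 0.00014). Wdr43 and Utp15, which act with it early in transcription of the precursor, rose by 0.73 and 0.66 in injured BALF at 6 h. Tsr1, a late assembly factor, went from a mean of 92.4 ± 11.2 CPM (SD, n = 6) with media at 6 h to 158 ± 11.6 in injured BALF and 82.4 ± 11.4 in injured BALF at 24 h. It rose by 0.77 ± 0.096 over media at 6 h and fell by 0.93 ± 0.096 with time in injured BALF (edgeR adjusted p = 7.5e-07 and 7.4e-08). Of its 3837 exon bases, 1240 overlap exons of Srr on the opposite strand, and the counts may mix both genes if strand was not used. Rrp12, which takes part in export of both subunits, rose by 0.60 and 0.83 at 6 h, and its fall was 1.01 in uninjured and 0.99 in injured BALF. Utp20 was the member of this group not called in uninjured BALF at 6 h, at 0.18 ± 0.12 (edgeR adjusted p = 0.31), while it rose by 0.49 ± 0.12 in injured BALF (edgeR adjusted p = 0.0022). Nop14 was the member not called in injured BALF at 24 h, at 0.11 ± 0.11 (edgeR adjusted p = 0.54).

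Large-subunit factors made up 12 of the 35 members, and all 11 that could be tested rose in both fluids at 6 h and fell with time in both. Rrs1, needed for maturation of the large subunit, passed in 8 of the 11 comparisons, more than any other member. Rrs1 (ENSMUSG00000061024.8, chr1:9545408-9547455, plus strand) lay at 27.9 to 39.0 (median 33.2) CPM in media at 6 h, 46.8 to 59.1 (median 56.2) in uninjured BALF and 62.7 to 78.2 (median 69.0) in injured BALF. Its 3 treatments occupied separate ranges at 6 h. The rise over media was 1.63-fold or 0.70 ± 0.092 log2 units in uninjured BALF (edgeR adjusted p = 4.0e-06) and 2.1-fold or 1.07 ± 0.092 in injured BALF (edgeR adjusted p = 1.7e-09). At 24 h it lay at 21.2 to 29.4 (median 26.4) CPM in media, 25.8 to 39.1 (median 30.4) in uninjured BALF and 34.5 to 43.2 (median 39.6) in injured BALF, where injured and media libraries did not overlap (0.59 ± 0.092 log2 units; edgeR adjusted p = 2.9e-05).

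Noc3l (ENSMUSG00000024999.7, chr19:38788128-38819237, minus strand), a nucleolar partner in moving the precursor of the large subunit, was the member with the lowest p for the fall with time in both fluids. It lay at 42.6 to 51.1 (median 46.4) CPM in uninjured BALF at 6 h and 19.0 to 26.9 (median 24.1) at 24 h, and at 52.6 to 58.3 (median 54.6) and 22.1 to 33.5 (median 29.1) in injured BALF. The 6 h and 24 h libraries did not overlap in either fluid, and Noc3l fell by 0.96 ± 0.092 and 0.93 ± 0.091 log2 units (edgeR adjusted p = 2.2e-08 and 3.9e-08). Noc2l, its relative, rose by 0.63 and 0.79 at 6 h, and 598 of its 2867 exon bases overlap Samd11 on the opposite strand. Nop2, an RNA cytosine methyltransferase whose promoter is printed above, lay at 63.0 to 89.2 (median 75.4) CPM in media at 6 h, 133 to 150.2 (median 141) in uninjured and 126 to 163 (median 149) in injured BALF. The BALF groups overlapped each other nearly in full and media not at all, and the rises were 0.88 ± 0.14 and 0.95 ± 0.14 log2 units (edgeR adjusted p = 3.4e-05 and 5.7e-06).

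Bop1, Pes1 and Wdr12 form the PeBoW complex, which is required for processing of large-subunit RNA, and all 3 genes rose. In injured BALF at 6 h Wdr12 rose by 0.64 ± 0.12, Bop1 by 0.51 ± 0.10 and Pes1 by 0.29 ± 0.058 log2 units (edgeR adjusted p = 0.00019, 0.0005 and 0.00045), and the differences among the 3 were not tested. Pes1 had the smallest fold change of all tested members there, and yet its 6 media libraries, at 86.7 to 94.0 CPM, lay below all 6 injured ones, at 98.5 to 119.7 CPM. Nop16, Ppan and Nle1, further assembly factors, rose by 0.87, 0.80 and 0.71 in the same comparison. Ppan was the large-subunit member that did not pass in injured BALF at 24 h, at 0.34 ± 0.13 (edgeR adjusted p = 0.066). Wdr74, a partner of the ATPase Nvl in release of factors from the large subunit, had at most 2 counts in any library and no value is drawn from it.

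Ftsj3 (ENSMUSG00000020706.13, chr11:106249142-106256079, minus strand), an RNA methyltransferase of the large-subunit pathway, lay at 83.5 to 99.0 (median 89.4) CPM in media at 6 h, 119 to 153 (median 132) in uninjured and 143 to 183 (median 150.4) in injured BALF. Media stood apart from both fluids, and the top injured value is that of female replicate 3. It rose by 0.56 ± 0.092 and 0.79 ± 0.093 (edgeR adjusted p = 9.1e-05 and 2.9e-07). At 24 h Ftsj3 was read at 58.0 to 81.8 (median 74.0) CPM in media, 69.9 to 101 (median 83.7) in uninjured and 86.0 to 121 (median 113) in injured BALF. All injured libraries were above all media libraries, by 0.59 ± 0.093, the lowest p of any member in that comparison (edgeR adjusted p = 2.8e-05).

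Ddx21, Gnl3 and Mybbp1a are nucleolar proteins outside these particles. Mybbp1a (ENSMUSG00000040463.16, chr11:72441355-72451768, plus strand), a Myb-binding protein that takes part in RNA processing, lay at 214 to 284 (median 244) CPM in media at 6 h, 346 to 424 (median 359.6) in uninjured and 385 to 519 (median 414) in injured BALF. Media and BALF did not overlap, and its rise was 0.60 ± 0.10 and 0.80 ± 0.10 (edgeR adjusted p = 0.0001 and 7.7e-07). At 24 h its level was 154 to 203 (median 185) CPM in media, 164 to 269.5 in uninjured and 226 to 319 (median 262) in injured BALF, with injured above media in every library and by 0.57 ± 0.10 (edgeR adjusted p = 0.00013). Ddx21, an RNA helicase that couples polymerase I and processing, rose by 0.53, 0.71 and 0.48 in uninjured 6 h, injured 6 h and injured 24 h. Gnl3 (nucleostemin, a GTP-binding protein of dividing cells) rose by 0.45, 0.65 and 0.42 in the same order. In uninjured BALF at 6 h the calls of Gnl3 and Nop58 were lost without replicate 2 of male uninjured BALF. In media its fall with time, 0.59, was among the largest of the members (edgeR adjusted p = 0.008), next to 0.50 for Utp15 and 0.55 for Tsr1. Of the members that did not pass there, Nhp2, Utp20 and Ncl differed most, at -0.48 ± 0.16, -0.32 ± 0.12 and -0.30 ± 0.098 (edgeR adjusted p = 0.06, 0.085 and 0.059). With the replicate number as a block all 3 passed (edgeR adjusted p = 0.023, 0.047 and 0.0499). This comparison is not among those read as paired, since replicate 2 of female media correlated at only 0.035 between 6 and 24 h.

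**Figure D2:**
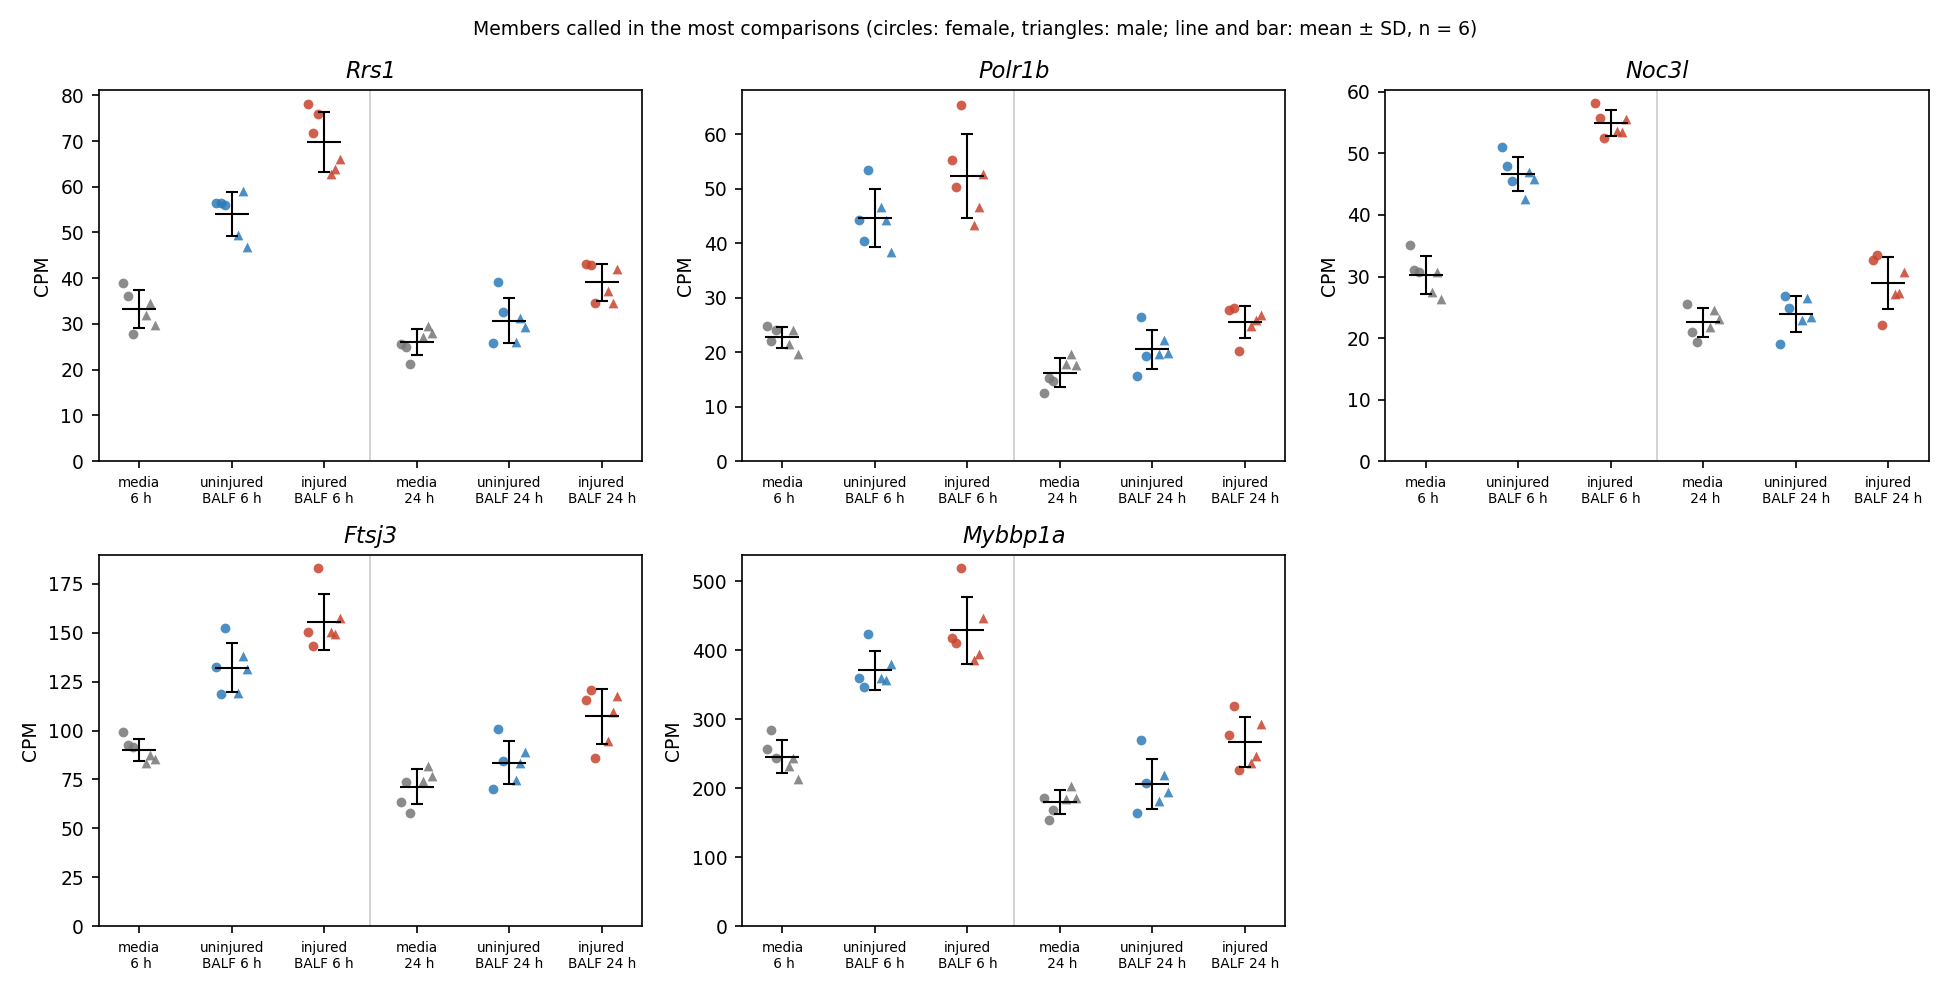
Levels in CPM of the 5 members other than Myc that passed the test in the most comparisons, by treatment and time. Circles are female and triangles male libraries, and the line and bar give the mean ± SD (n = 6): in all 5 genes the 6 h media libraries lie below every 6 h BALF library, and at 24 h the levels are lower in both BALF groups.

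**Figure D3:**
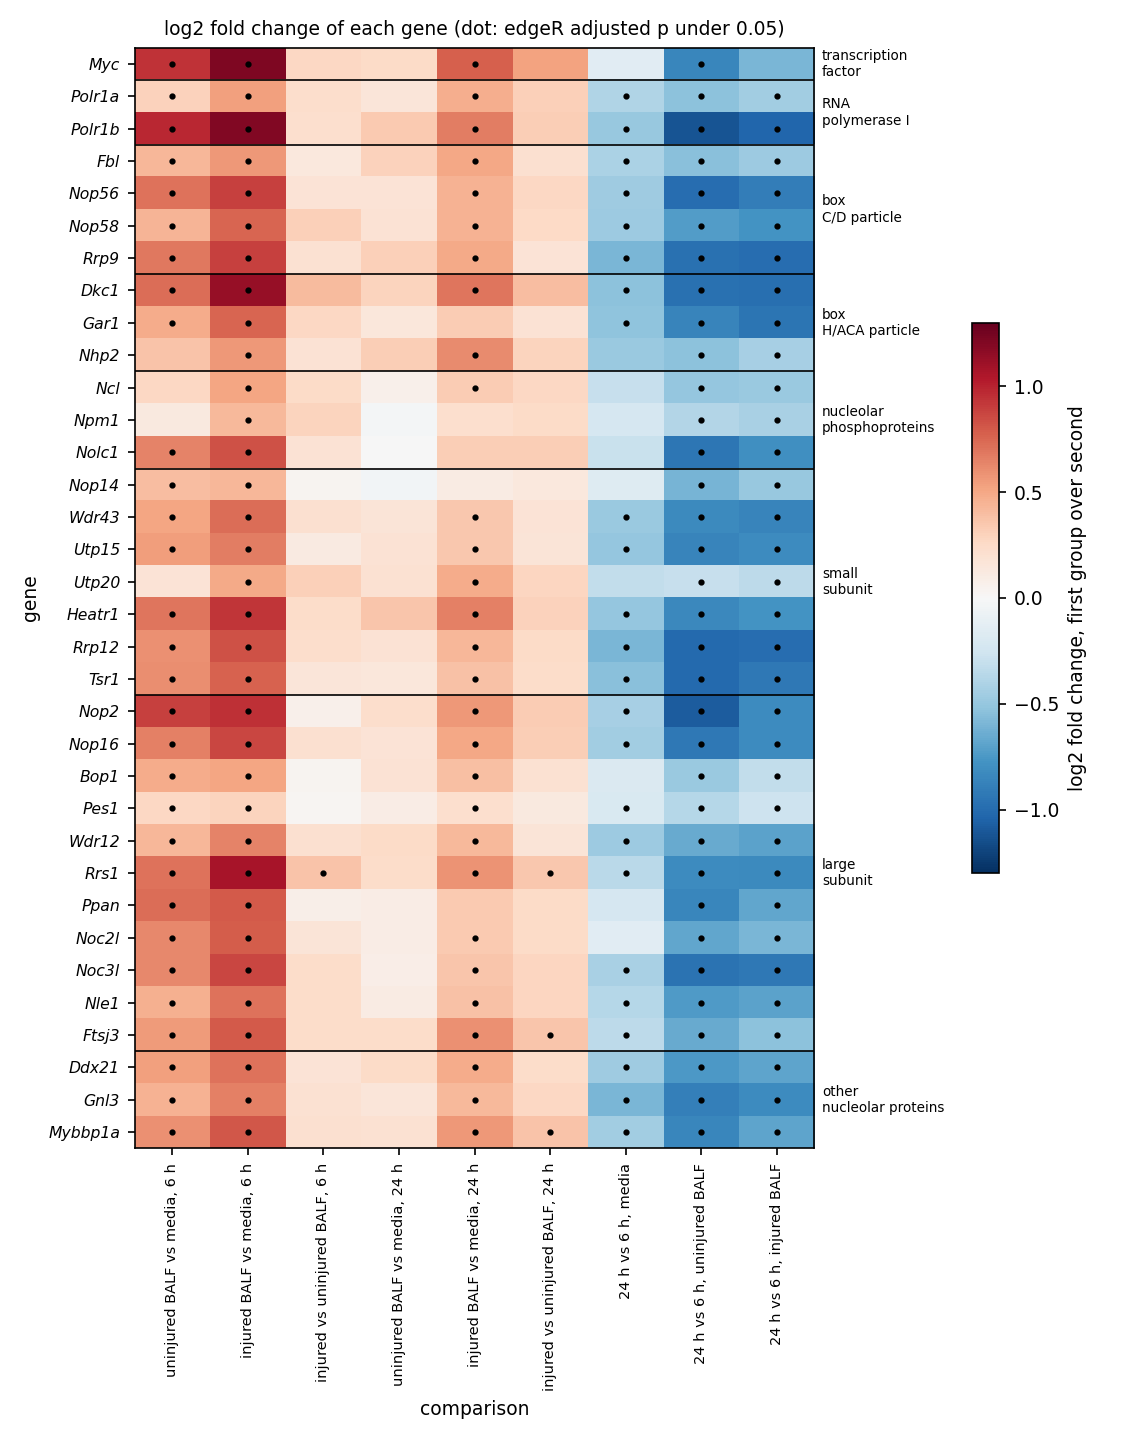
Log2 fold change of the 34 tested members (rows, ordered by role) in 9 comparisons (columns), with red for higher and blue for lower in the first-named group and a dot where the edgeR adjusted p is under 0.05. All 34 carry a dot in injured BALF against media at 6 h and in 24 h against 6 h in uninjured BALF, and none does in uninjured BALF against media at 24 h.

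The comparison of the 2 fluids asks what BALF from injured lungs adds to BALF as such. At 6 h all 34 log2 differences were above 0, at a median of 0.21, beside 0.00 for all tested genes. By the test 1 member rose, where 1.97% of all tested genes did, 12 had an unadjusted p under 0.05, and DESeq2 also called 1. That member was Rrs1, at 0.37 ± 0.091 (edgeR adjusted p = 0.018), the same call with the replicate number as a block. It was lost without replicate 1 or 3 of male uninjured BALF at 6 h, without any of the 3 replicate numbers, and when the libraries numbered 1 and 2 were summed. The largest differences that did not pass were 0.41 ± 0.13 for Dkc1, 0.31 ± 0.13 for Nop58 and 0.31 ± 0.12 for Utp20 (edgeR adjusted p = 0.092, 0.25 and 0.17). Myc differed by 0.27 ± 0.24 (edgeR adjusted p = 0.72).

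At 24 h the 34 differences between injured and uninjured BALF were again above 0, at a median of 0.27 beside -0.004 for all tested genes. By the test 3 members rose, where 2.38% of all tested genes did. These were Ftsj3 at 0.36 ± 0.092, Rrs1 at 0.35 ± 0.092 and Mybbp1a at 0.37 ± 0.10 (edgeR adjusted p = 0.021, 0.023 and 0.028).  An unadjusted p under 0.05 was found in 21 members, a count to which the 2.38% does not apply.  In Ftsj3, Rrs1 and Mybbp1a the calls rest on the adjusted threshold. In each of them the 2 groups overlapped, with replicate 2 of female uninjured BALF above the lowest injured library. Among those that missed the threshold, Dkc1 differed by 0.40 ± 0.13, Nop2 by 0.33 ± 0.13, Nolc1 by 0.32 ± 0.16 and Myc by 0.53 ± 0.25 (edgeR adjusted p = 0.081, 0.18, 0.29 and 0.26). The count of 3 was not stable: leaving out replicate 2 of female uninjured BALF gave 14 and replicate 3 of female injured BALF 13. Leaving out replicate 1 of female injured BALF gave 1. It was 0 on leaving out replicate 1 or 3 of female uninjured BALF, replicate 1 of male uninjured BALF, replicate 2 of female injured BALF or replicate 3 of male injured BALF. It was also 0 without replicate number 1 or 2 and with the libraries numbered 1 and 2 summed, and 2 without the 4 libraries. The share of all tested genes called under each of these settings is not given here.

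Whether an effect changed between 6 and 24 h was tested directly. The difference between injured and uninjured BALF gave 0 calls among the members, 0 members with an unadjusted p under 0.05 and 0 calls by DESeq2, with 0.239% of all tested genes called. The change in that difference ran from -0.08 to 0.27 log2 units over the members, with Nop2 at 0.27 ± 0.19, Myc at 0.25 ± 0.35, Ppan at 0.17 ± 0.19 and Bop1 at 0.17 ± 0.15 as the largest. The difference between uninjured BALF and media was smaller at 24 h than at 6 h in 33 of 34 members, and the test called 2 of them lower, where 1.27% of all tested genes were called lower. Noc3l changed by -0.54 ± 0.13 and Polr1b by -0.63 ± 0.15 (edgeR adjusted p = 0.024 and 0.024), and 18 members had an unadjusted p under 0.05. Larger changes that did not pass were -0.70 ± 0.35 for Myc, -0.65 ± 0.19 for Nop2, -0.64 ± 0.22 for Nolc1 and -0.63 ± 0.19 for Ppan, and for Myc the change was -0.20 without replicate 1 of female media at 24 h. DESeq2 called 7 members, the low-count filter left out gave 1, and the count was 0 without the 4 libraries, without any replicate number and with the libraries numbered 1 and 2 summed. Leaving out replicate 2 of female uninjured BALF at 24 h gave 10 and replicate 3 of female media at 24 h gave 6. It was 1 without replicate 1 of male uninjured BALF at 6 h, replicate 2 of male media at 24 h or replicate 3 of female uninjured BALF at 24 h. It was 0 without replicate 3 of male media at 6 h or of male uninjured BALF at 24 h. No treatment effect on a member differed between the sexes in any of the 6 treatment comparisons by edgeR, with 0 calls by DESeq2. Of all 15901 tested genes, edgeR also called 0 in each of the 6, so this result is not particular to the members. An unadjusted p under 0.05 was seen in 3 members for each of the 2 fluids against media at 24 h and in 0 members in the other 4 comparisons. At 24 h the effect in male minus that in female libraries was below 0 in 31 of 34 members for uninjured and 32 of 34 for injured BALF, at medians of -0.28 and -0.25 beside 0.02 and 0.03 for all tested genes. The 33-gene average of media at 24 h lay at -0.81 to -0.49 in female and -0.44 to -0.28 in male libraries, which do not overlap. In injured BALF at 6 h the sexes did not overlap either, with female libraries higher, at 0.60 to 0.84 against 0.51 to 0.59. In the remaining groups they overlapped, and differences between the sexes in this average were not tested.

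Other genes of ribosome production were taken from lists that do not overlap the members. Like the members, these lists were chosen with earlier results of these data known. In uninjured BALF at 6 h, 35 of 41 other large-subunit factors and 27 of 41 other small-subunit factors rose and 0 fell, at medians of 0.40 and 0.39. Of all tested genes 10.6% rose and 7.82% fell there. In injured BALF at 6 h the counts were 35 and 38, at 0.57 and 0.50, beside 13.9% of all tested genes. At 24 h they were 25 and 21, beside 11.5% of all tested genes, and 8 and 5 without replicate number 2. The lowest p-values of these lists in injured BALF at 6 h belonged to Rcl1, a small-subunit processome protein, at 1.14 ± 0.091, and Lsg1, a GTPase that releases the large subunit's export adaptor, at 0.65 ± 0.063 (edgeR adjusted p = 4.1e-10 and 8.8e-09). Of 14 further genes of RNA polymerase I and its factors, 5 rose in uninjured and 9 in injured BALF, led by the subunit Polr1e at 1.05 ± 0.10 (edgeR adjusted p = 9.9e-09). Of 11 genes of snoRNP assembly and other nucleolar factors, 6 and 9 rose, with the H/ACA assembly factor Shq1 at 1.16 ± 0.14 in injured BALF (edgeR adjusted p = 4.2e-07). The RNA exosome, which trims precursors and degrades spacers, had 3 of 11 tested genes higher in uninjured and 8 in injured BALF. Beside these lists stand the same 10.6% and 13.9% of all tested genes. Without replicate number 2 or 3, the exosome had 1 gene higher in injured BALF. Without replicate number 2 in all groups, the counts in uninjured BALF were 19 for large-subunit, 17 for small-subunit, 2 for polymerase I and 3 for snoRNP genes.

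Of 79 cytosolic ribosomal protein genes, 2 rose in injured BALF at 6 h (Rpl27, 0.20 ± 0.061, and Rpl24, 0.74 ± 0.25; edgeR adjusted p = 0.015 and 0.03), where 13.9% of all tested genes rose. The medians of the list at 6 h were 0.07 in uninjured and 0.10 in injured BALF, beside -0.01 for all tested genes. With time in injured BALF, 1 of the 79 fell (Rpl24), at a median of -0.06, while 36 of 41 other large-subunit and 38 of 41 other small-subunit factors fell. Of all tested genes 14.2% fell there. Ribosomal protein genes have many processed copies in the genome, which makes their counts uncertain. Without replicate number 1, 2 or 3, 0 of the 79 passed in injured BALF at 6 h.

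**Figure D4:**
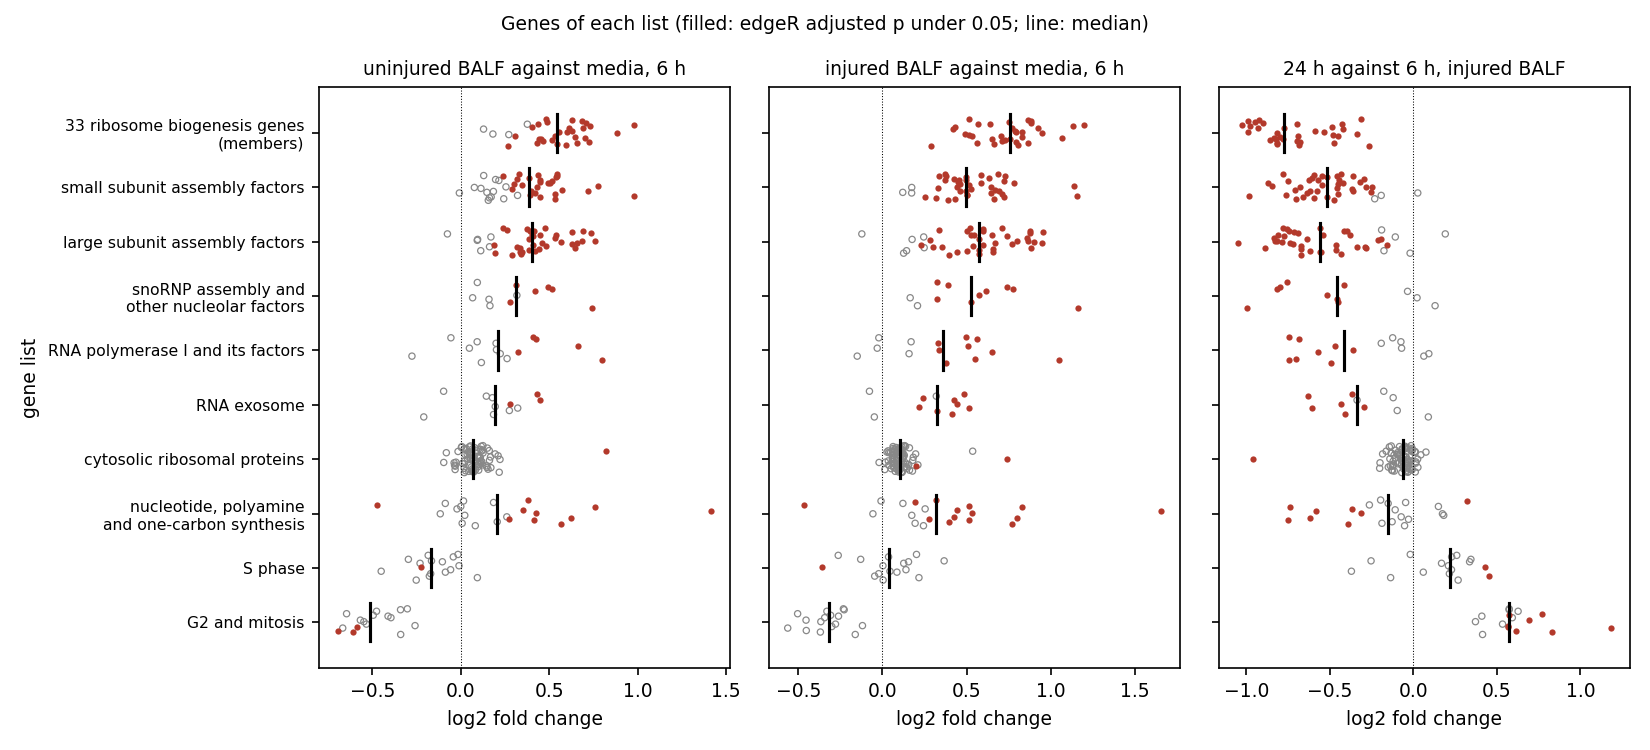
Log2 fold change of every tested gene among 33 members and in 9 other gene lists (rows) for 3 comparisons (panels). Filled points passed the edgeR test and the black line is the median of the list: the members have medians of 0.54, 0.76 and -0.78, and the 79 ribosomal protein genes of 0.07, 0.10 and -0.06.

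Nucleotide, polyamine and one-carbon synthesis supplies growing cells, and several of its genes are known Myc targets. Of 21 such genes, 9 rose and 1 fell in uninjured BALF at 6 h, where 10.6% of all tested genes rose and 7.82% fell. In injured BALF 13 rose and 1 fell at 6 h, beside 13.9% and 11.4% of all tested genes. At 24 h 14 rose and 1 fell, beside 11.5% and 12.2%. Odc1, the rate-limiting enzyme of polyamine synthesis, rose by 1.42 ± 0.17, 1.66 ± 0.17 and 1.47 ± 0.17 (edgeR adjusted p = 1.3e-06, 3.8e-08 and 5.3e-07). It also rose in injured against uninjured BALF at 24 h, by 0.99 ± 0.17 (edgeR adjusted p = 0.00059). Without replicate numbers 1, 2 and 3 the counts higher in uninjured BALF at 6 h were 5, 4 and 5.

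Of 11 partners and relatives of Myc, 2 (Mga and Mlxip) rose and 3 fell in injured BALF at 6 h, where 13.9% of all tested genes rose and 11.4% fell. In uninjured BALF 2 rose and 1 fell, beside 10.6% and 7.82% of all tested genes. Mxd4, which competes with Myc for Max, fell by 0.55 ± 0.14 in uninjured and by 0.79 ± 0.14 in injured BALF (edgeR adjusted p = 0.0057 and 9.2e-05). Mxd1, of the same family, fell by 0.65 ± 0.16 in injured BALF (edgeR adjusted p = 0.0034). From 6 to 24 h in injured BALF, Mxi1, Mxd1 and Mxd4 rose by 1.21 ± 0.18, 0.79 ± 0.16 and 0.61 ± 0.14 (edgeR adjusted p = 1.8e-05, 0.00057 and 0.0014). With the libraries numbered 1 and 2 summed, 0 genes of this list rose and 2 fell in injured BALF at 6 h, and 0 passed in uninjured BALF.

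Genes of G2 and mitosis gave unstable counts. Of 16 G2 and mitosis genes 0 rose and 3 fell in uninjured BALF at 6 h, where 7.82% of all tested genes fell, at a median of -0.52. In injured BALF at 6 h 0 passed, at -0.32, where 3 had an unadjusted p under 0.05 and the replicate block gave 2 lower. The count of 3 ran from 0 to 9 over the alternatives. From 6 to 24 h, when the members fell, 11 of the 16 rose in uninjured and 8 in injured BALF, where 15.2% and 12.8% of all tested genes rose. The medians of the list were 0.60 and 0.57, with the cyclin Ccnb2 at 1.18 ± 0.31 in injured BALF (edgeR adjusted p = 0.0056). Without replicate number 1 these counts were 1 and 0, and with the libraries numbered 1 and 2 summed 4 and 2. Of 16 S phase genes, 8 rose in injured BALF against media at 24 h, where 11.5% of all tested genes did, at a median of 0.42, and 2 did without replicate number 2.

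Compared per length of mRNA, the members spanned a wide range. Averaged over the 36 libraries, Npm1 was highest at 425 CPM per kilobase, followed by Ncl at 91.7, Mybbp1a at 65.0 and Nop56 at 63.1. Myc stood at 31.5, and Polr1b and Utp15 were among the lowest at 7.58 and 5.85. The members with the highest levels per length, Npm1 and Ncl, were among those with the smaller fold changes, and Polr1b among those with the largest. Lengths are those of the longest RefSeq-linked transcript, which understates the level of genes with a long annotated mRNA such as Nop58 and Wdr12.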

How the data were processed

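RNA from 36 libraries was sequenced after preparation with a stranded mRNA kit, per the labels' protocols. Values are whole-number read counts for 48795 Ensembl identifiers in the authors' deposited table. STAR 2.5.2b, RSEM 1.2.31, DESeq2 and the GRCm38 build are named, per the submitters' processing notes, with no role or strand setting stated. Counts may be rounded RSEM estimates, which share reads among near-identical genes. Identifiers were matched to GENCODE M21 (99.26% matched; the rest held at most 0.011% of a library's counts). No column of other samples was present.

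The fit used edgeR 4.0.16 (R 4.3.3): TMM scaling (factors 0.874 to 1.092), edgeR's expression filter (15901 genes left), and the quasi-likelihood test with 12 groups (each treatment, time and sex) and 24 residual df. Variation between libraries was 22.5% (square root of edgeR's common dispersion), and the labels do not say whether it is biological or technical. Effects in females and males were averaged. A gene was called where its p, adjusted by Benjamini-Hochberg over all genes tested, was under 0.05. SE was taken as log2 fold change over the root of F. The fit was tested on simulated data. Myc and the 5 called members of lowest p per comparison were named, the up to 3 members with the largest change that did not pass were also named, every other member is given by role, and from each other list at most 4 called genes of lowest p. The members and lists were chosen with earlier results of these data known.

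Alternatives were DESeq2 1.42.0, other scalings and low-count filters, a block of replicate number, summing libraries 1 and 2, and leaving out libraries or replicate numbers; those for the lists other than the members were added after seeing the data. Correlations of deviations between same-numbered libraries ran from -0.60 to 0.76 (51 of 90 over 0.1), and all 6 were over 0.1 for injured against uninjured BALF at 6 h (0.46 to 0.76) and for 24 against 6 h in injured BALF (0.30 to 0.67), which are therefore read as paired. The labels state no pairing, and the block spans all groups of a sex, so it is not a paired fit of a single comparison. RefSeq promoter tables supplied the sequences.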

Additional observations from a re-analysis of the deposited data

Results flagged for a closer look

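In injured BALF at 6 h, 1 library stood apart from the other 5 for Ftsj3: female replicate 3 held 183.3 CPM, and the others held 143 to 157.6. The gap to the nearest library was 0.637 of the whole range, where 0.625 is the critical value of Dixon's test for 6 libraries. The same library also had the highest average of the 33 ribosome biogenesis genes in its group, at 0.84. In all, 42 groups of 6 libraries were checked in this way, and chance marks about 1 in 20 groups.

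The difference between uninjured BALF and media differed between 6 and 24 h in 2 members, by the test of the change itself. For Polr1b it changed by -0.633 log2 units and for Noc3l by -0.543, and was smaller at 24 h in both. Leaving out replicate 3 of male media at 6 h or of male uninjured BALF at 24 h ended both calls. Polr1b also lost its call without replicate 1 of male uninjured BALF at 6 h, replicate 2 of male media at 24 h or replicate 3 of female uninjured BALF at 24 h.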

How the results depend on the processing

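The count of members called in uninjured BALF against media at 6 h ran from 19 to 31 when single libraries or a replicate number were left out, that in injured BALF at 6 h from 32 to 34, and that in injured BALF at 24 h from 9 to 33. The falls with time ran from 29 to 34 in uninjured BALF, 28 to 34 in injured BALF and 0 to 29 in media. Leaving out libraries gave 0 to 3 calls for uninjured BALF against media at 24 h, 0 to 1 for injured against uninjured BALF at 6 h, 0 to 14 at 24 h, and 0 to 10 for the change of the uninjured effect with time. With the libraries numbered 1 and 2 summed, the last 3 of these comparisons and the fall in media each gave 0. Counts of members under these settings stand without the share of all tested genes called, so a gain or loss of calls may not be particular to the members. Without the 4 libraries of a differing description number, the fall in media was called in 7 members and the change of the uninjured effect in 0. For that change DESeq2 gave 7 and the test with no low-count filter 1. The replicate block, with the replicate number as a term, gave 6 there, and moved no other count of members by more than 1.5 times. Outside injured against uninjured BALF at 6 h and 24 against 6 h in injured BALF, not all 6 same-numbered pairs of libraries correlated over 0.1.

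The log2 difference of Myc between 24 and 6 h in media was -0.15 and turned to 0.009 without the 4 libraries. It ran from -0.646 to 0.136 on leaving out libraries or replicate numbers, with 0.011 without replicate 2 of female media at 24 h. Its difference between uninjured BALF and media at 24 h ran from -0.095 to 0.873 in the same way. The cause was not tested for any of these.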
